A study of Danio rerio with 3 samples.

Results

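The heme synthesis enzymes described here are the 10 zebrafish genes *alas1*, *alas2*, *alad*, *hmbsa*, *hmbsb*, *uros*, *urod*, *cpox*, *ppox* and *fech*, which between them encode every step of the pathway from glycine and succinyl-CoA to heme. They were picked by gene name from the 31950 genes of the deposited tables, and each name matched 1 entry. The rule used no value of their own, but earlier results of these data were known when it was made. RNA-seq of whole zebrafish embryos was used to ask which transcripts change after a reactive lipid aldehyde is released beside Keap1, the protein that holds the antioxidant factor Nrf2 in check. The 3 libraries were HNE Z-REX (4-hydroxynonenal), HDE Z-REX (4-hydroxydodecenal, the same kind of aldehyde with a longer alkyl chain) and non-treated, with 1 library each. All embryos came from the *Tg(lyz:TagRFP)* line, in which the *lyz* promoter drives a red fluorescent protein in neutrophils, and all were labelled as expressing a Halo-TEV-Keap1 fusion from mRNA injected at the first cell stages. The labels number the Keap protein of the fusion differently for each library, whereas the protocol names Keap1 for all of them. In Z-REX a caged precursor bound to the Halo domain frees the aldehyde on illumination: the protocol gives 1 μM of the HNE precursor, 30 h of darkness, 3 min of 365 nm light at 0.5 mW per cm2 and RNA isolation 1.5 h later. A separate dose for the HDE precursor, the number of embryos per library and any light exposure of the non-treated embryos are not given in the sources used here, so precursor, light and aldehyde cannot be told apart in either comparison with the non-treated library.

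Heme is an iron-bearing porphyrin that carries oxygen in hemoglobin and electrons in cytochromes. Its synthesis begins in mitochondria with 5-aminolevulinate synthase, the step that sets the rate, passes through the cytosol, where porphobilinogen is built and joined into a ring, and returns to mitochondria, where ferrochelatase inserts iron. Vertebrates have a housekeeping synthase, ALAS1, which heme itself represses, and an erythroid synthase, ALAS2, which serves hemoglobin production; zebrafish mutants in *alas2*, *urod*, *ppox* and *fech* are anemic or porphyric.

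The libraries held 17704406 counts (HNE Z-REX), 15084289 counts (HDE Z-REX) and 17996107 counts (non-treated), and comparisons took in the 18563 genes averaging 10 counts or more. All 10 heme synthesis genes passed this minimum, and their counts were whole numbers in every library. How reads shared between genes were counted is not known, so whole counts do not show that no read was shared. Together they took 0.0244% of the counts in HNE Z-REX, 0.0267% in HDE Z-REX and 0.0274% in non-treated. Ratios below are ratios of counts scaled for library size and composition (TMM), with an exact 95% interval that covers counting error only. "Rose" and "fell" are used of genes at least 1.5-fold apart with an interval that leaves out 1. No condition was sequenced again, so no ratio has a replicate check, and each compares libraries rather than conditions.

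Per transcript length, in FPKM, *alas1* was the highest of the 10 genes in every library and *fech* the lowest. The ratio of highest to lowest was 10.4 in HNE Z-REX, 16.5 in HDE Z-REX and 15.8 in non-treated. In the non-treated library the order ran *alas1*, *hmbsa*, *alas2*, *urod*, *alad*, *cpox*, *hmbsb*, *uros*, *ppox*, *fech*, and neighbours in it had separate ranges over the 3 libraries except *hmbsa* with *alas2* and *alas2* with *urod*. These ranges span 3 conditions and do not measure error. The lowest *urod* value, 19.98 FPKM, was barely above the highest of *alad*, 19.87. The range of *hmbsa* also overlapped those of *urod* and *alad*. *urod* and *hmbsa* exchanged places: *urod* held rank 2 in HNE Z-REX and in HDE Z-REX and rank 4 in non-treated, and *hmbsa* held rank 4 in both Z-REX libraries and rank 2 in non-treated. The median heme synthesis gene had 16.3 FPKM in HNE Z-REX, 15.8 in HDE Z-REX and 16.0 in non-treated, against 5.97, 6.06 and 5.91 FPKM for the median of all compared genes in the same order of libraries.

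**Figure D1:**
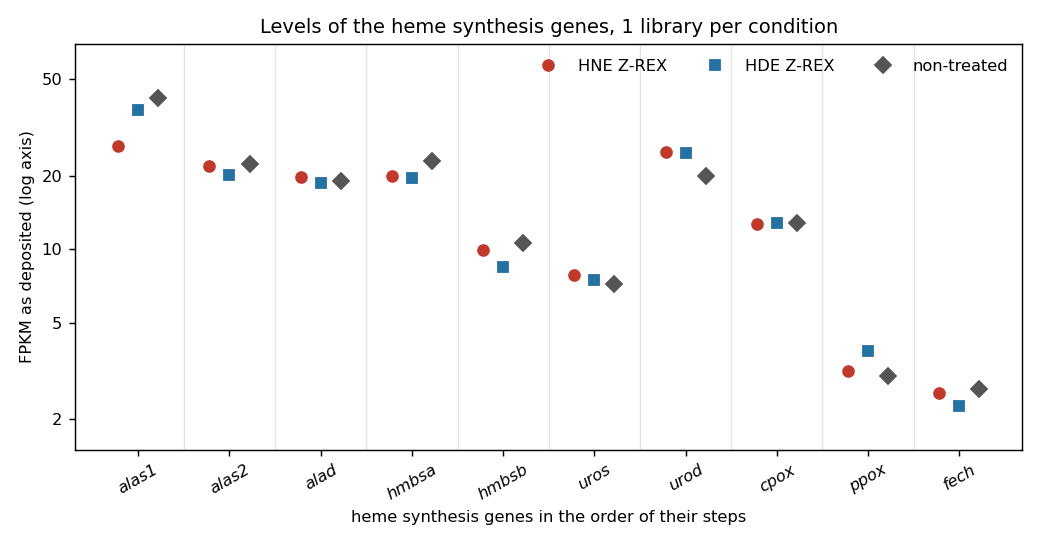
Deposited FPKM (log axis) of the 10 heme synthesis genes in the order of their steps, 1 point per library. *alas1* has 26.6 FPKM in HNE Z-REX, below 37.5 in HDE Z-REX and 42.1 in non-treated, while the 3 points of *cpox* lie between 12.7 and 12.8 FPKM.

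Across the pathway, *alas1* was the one gene that fell, in HNE Z-REX against non-treated, and no heme synthesis gene rose in any comparison. In HNE Z-REX against non-treated, 0 of 10 genes were at least 1.5-fold higher and 1 was at least 1.5-fold lower, beside 5.26% and 4.28% of all compared genes. In HDE Z-REX against non-treated the counts were 0 higher and 0 lower, beside 6.23% and 4.25% of all genes. In HNE Z-REX against HDE Z-REX they were again 0 and 0, beside 4.07% and 5.39%.

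Smaller differences were read from the counting intervals. These narrow as counts rise, so the share of genes with an interval off 1 depends on abundance. In HNE Z-REX against non-treated, the interval lay above 1 for 1 gene (*urod*) and below 1 for 2 genes (*alas1*, *hmbsa*), beside 12.4% and 12.6% of all genes. In HDE Z-REX against non-treated it lay above 1 for 1 gene (*urod*) and below 1 for 5 genes (*alas1*, *alas2*, *alad*, *hmbsa*, *hmbsb*), beside 13.8% and 16.8% of all genes. There *fech*, the last step, had a ratio of 0.848 (0.563 to 1.27), lower than those of *alas1*, *alas2* and *alad*. It had only 45 counts in HDE Z-REX and 60 in non-treated. Scaled by total counts instead, which raises every HDE ratio by 0.077 on the log2 scale, only *hmbsa* stayed below 1 in that comparison, and *urod* and *ppox* lay above it. In HNE Z-REX against HDE Z-REX the interval lay above 1 for 0 genes and below 1 for 1 gene (*alas1*), beside 15.2% and 11.5% of all genes. These intervals hold no variation between embryos: if each library is given a biological coefficient of variation of 0.1, 1 gene in HNE Z-REX and 0 in HDE Z-REX kept an interval off 1 against non-treated.

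**Figure D2:**
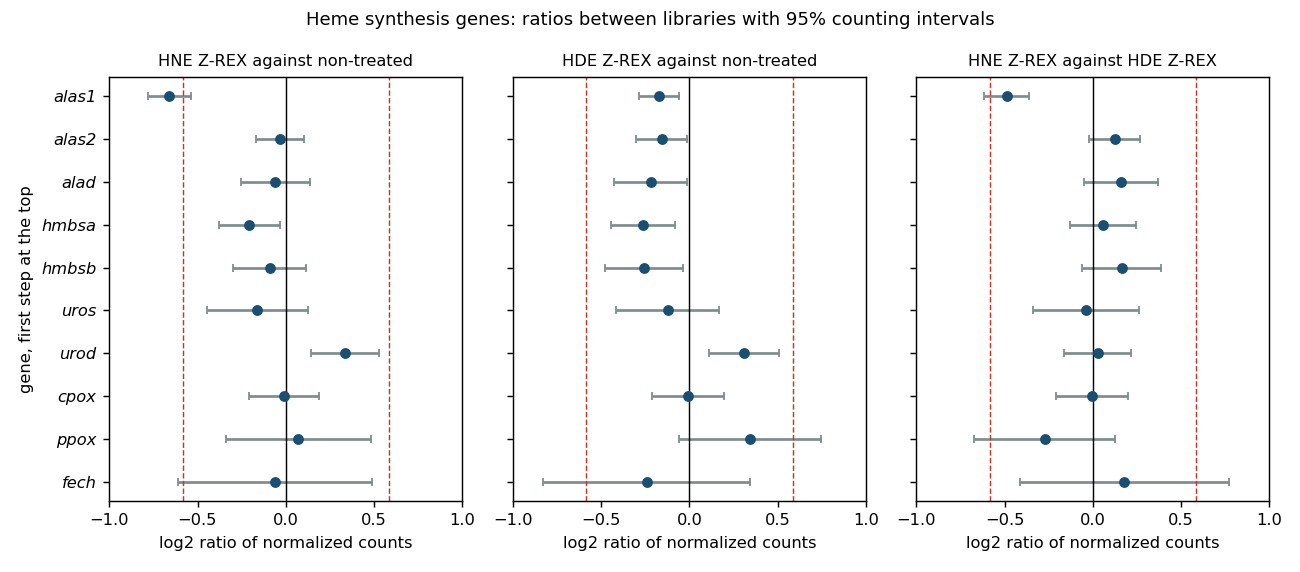
Log2 ratio of TMM-normalized counts for each heme synthesis gene in the 3 comparisons, with the first step at the top; bars are exact 95% counting intervals and dashed lines mark 1.5-fold. *alas1* lies beyond the lower line in HNE Z-REX against non-treated (-0.66), and *urod* lies right of 0 against non-treated in both Z-REX libraries (0.34 and 0.31).

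The synthases of the first step moved apart. *alas1*, the housekeeping gene, had 883 counts in HNE Z-REX, 1105 in HDE Z-REX and 1407 in non-treated. The HNE Z-REX library was the lowest of the 3, and after scaling the HDE Z-REX library lay nearer to non-treated than to it. *alas1* thus fell in HNE Z-REX to 0.633 times its non-treated level (interval 0.581 to 0.689), and 3.35% of all compared genes had a lower ratio. In HDE Z-REX its ratio to non-treated was 0.888 (0.820 to 0.962).

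*alas2*, the erythroid gene, had 852 counts in HNE Z-REX, 698 in HDE Z-REX and 880 in non-treated. Its ratio to non-treated was 0.977 (0.888 to 1.07) in HNE Z-REX and 0.897 (0.811 to 0.992) in HDE Z-REX, so that neither library was far from non-treated. Within a library, scaling plays no part in the balance of the pair. *alas1* made up 50.9% of the counts of both synthases in HNE Z-REX (exact 95% interval 48.5 to 53.3), 61.3% in HDE Z-REX (59.0 to 63.5) and 61.5% in non-treated (59.5 to 63.5). The HNE Z-REX interval did not overlap the others, which overlapped each other. Summed over both genes, the synthase level was 48.6 FPKM in HNE Z-REX, 57.8 in HDE Z-REX and 64.6 in non-treated.

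**Figure D3:**
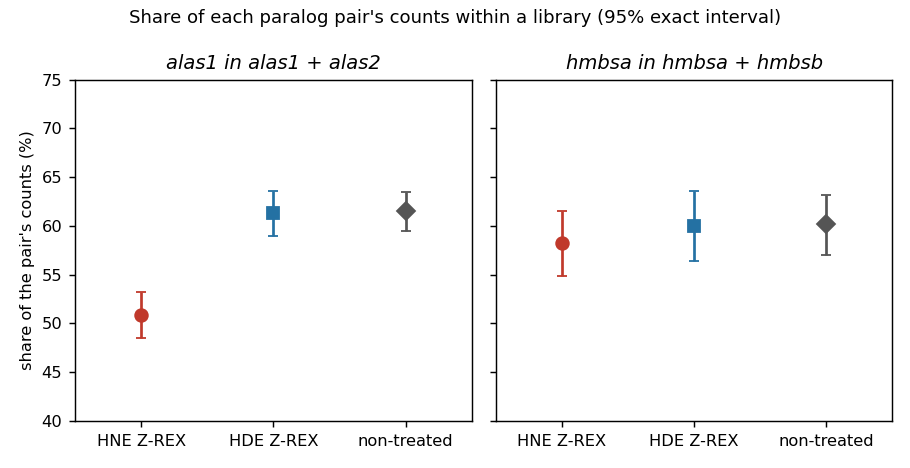
Share of *alas1* in the counts of *alas1* and *alas2* (left) and of *hmbsa* in those of *hmbsa* and *hmbsb* (right) within each library, with exact 95% intervals; the axis starts at 40%. The *alas1* share is 50.9% in HNE Z-REX and 61.3% and 61.5% in HDE Z-REX and non-treated, whereas the 3 *hmbsa* intervals overlap.

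The cytosolic steps begin with *alad*, whose enzyme makes porphobilinogen. It had 429 counts in HNE Z-REX, 343 in HDE Z-REX and 451 in non-treated, and its ratios to non-treated were 0.960 (0.839 to 1.1) and 0.860 (0.745 to 0.992) in HNE Z-REX and HDE Z-REX. Its FPKM were closer together, at 19.9, 18.8 and 19.1 in HNE Z-REX, HDE Z-REX and non-treated. The FPKM recorded for a given TMM-scaled count differed 1.14-fold between libraries for this gene. The direction for *alad* in HNE Z-REX therefore depended on the unit.

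Hydroxymethylbilane synthase, which joins porphobilinogen into a linear tetrapyrrole, is encoded by the paralogs *hmbsa* and *hmbsb*. *hmbsa* had 516 counts in HNE Z-REX, 443 in HDE Z-REX and 601 in non-treated, with ratios to non-treated of 0.866 (0.769 to 0.976) in HNE Z-REX and 0.834 (0.736 to 0.944) in HDE Z-REX. *hmbsb* had 370 counts in HNE Z-REX, 295 in HDE Z-REX and 398 in non-treated, with ratios of 0.938 (0.812 to 1.08) and 0.838 (0.719 to 0.977). Both ratios were lower in HDE Z-REX than in HNE Z-REX, with overlapping intervals, and the balance of this pair stayed within counting error, unlike that of the synthases. *hmbsa* took 58.2% of the pair's counts in HNE Z-REX (54.9 to 61.5), 60.0% in HDE Z-REX (56.4 to 63.6) and 60.2% in non-treated (57.0 to 63.2).

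*uros*, whose enzyme closes the ring, had 194 counts in HNE Z-REX, 178 in HDE Z-REX and 219 in non-treated. Its ratios to non-treated were 0.894 (0.733 to 1.09) and 0.919 (0.750 to 1.13) in HNE Z-REX and HDE Z-REX. In FPKM the order was reversed, with 7.84, 7.48 and 7.20 in HNE Z-REX, HDE Z-REX and non-treated. The FPKM recorded for a given TMM-scaled count differed 1.22-fold between libraries, more than for any other gene of the pathway. No direction is therefore given for *uros*.

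*urod*, whose enzyme removes carboxyl groups from uroporphyrinogen, was the only gene of the pathway with an interval above 1 in both comparisons with non-treated. Its intervals overlapped those of *cpox*, the next step, and genes were not tested against each other. *urod* had 498 counts in HNE Z-REX, 436 in HDE Z-REX and 398 in non-treated, and 25.2, 24.8 and 20.0 FPKM. Both Z-REX libraries lay above non-treated by a similar amount, with ratios of 1.26 (1.1 to 1.44) in HNE Z-REX and 1.24 (1.08 to 1.42) in HDE Z-REX, short of 1.5-fold. Since both ratios use the same non-treated library, they are not separate evidence of a difference. Between the aldehydes the ratio was 1.02 (0.894 to 1.16).

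Of the last steps in mitochondria, *cpox*, which encodes coproporphyrinogen oxidase, varied least. It had 418 counts in HNE Z-REX, 374 in HDE Z-REX and 425 in non-treated, with ratios to non-treated of 0.992 (0.865 to 1.14) and 0.995 (0.864 to 1.15). *ppox*, for protoporphyrinogen oxidase, had 104 counts in HNE Z-REX, 112 in HDE Z-REX and 100 in non-treated. Its ratios to non-treated were 1.05 (0.790 to 1.39) in HNE Z-REX and 1.27 (0.959 to 1.68) in HDE Z-REX, and at this depth a 1.5-fold difference in HDE Z-REX lay inside the interval.

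*fech*, the ferrochelatase gene, was the least abundant, with 57 counts in HNE Z-REX, 45 in HDE Z-REX and 60 in non-treated. Its ratios to non-treated were 0.959 (0.655 to 1.40) in HNE Z-REX and 0.848 (0.563 to 1.27) in HDE Z-REX. A 1.5-fold decrease of *fech* lay inside both intervals and could not be seen at this depth.

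Over the 10 genes, the median log2 ratio was -0.060 in HNE Z-REX against non-treated and -0.16 in HDE Z-REX against non-treated, beside 0.0029 and -0.0055 for all compared genes. A list of 8 genes of other tissues of the embryo had similar medians, -0.060 in HNE Z-REX and -0.13 in HDE Z-REX. In each of these comparisons 2 heme synthesis genes lay above non-treated and 8 below. Of all compared genes, 50.5% lay above and 49.5% below in HNE Z-REX, and 49.2% and 50.8% in HDE Z-REX. Of the 8 genes of other tissues, 1 lay above and 7 below in HNE Z-REX, and 2 and 6 in HDE Z-REX. The split changed with the unit: with FPKM *alad* and *uros* lay above non-treated in HNE Z-REX, and *uros* in HDE Z-REX. With total counts *cpox* did so in HDE Z-REX. The summed counts told the libraries apart in another way. The sum was 4321 in HNE Z-REX, 4029 in HDE Z-REX and 4939 in non-treated, giving ratios of 0.883 (0.847 to 0.920) and 0.923 (0.885 to 0.962). Without *alas1* these became 0.982 (0.937 to 1.03) in HNE Z-REX and 0.936 (0.891 to 0.984) in HDE Z-REX, so the lower sum in HNE Z-REX lay mostly in *alas1*, whereas that in HDE Z-REX was spread over several genes. The lower sum in HDE Z-REX depended on the scaling: with total counts its ratio was 0.973 (0.933 to 1.01), and without *alas1* 0.988 (0.940 to 1.04).

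HNE and HDE, which differ in the length of the alkyl chain, were compared directly as 1 pair of compounds. *alas1* was 0.713 times as high in HNE Z-REX as in HDE Z-REX (0.652 to 0.780), short of 1.5-fold, and 7.20% of all compared genes had a lower ratio. For the other genes the interval included 1. The tightest was that of *alas2*, with a ratio of 1.09 (0.984 to 1.21), and the widest was that of *fech*, with 1.13 (0.751 to 1.71). *alad* had a ratio of 1.12 (0.966 to 1.29), *hmbsa* of 1.04 (0.914 to 1.18), *hmbsb* of 1.12 (0.958 to 1.31) and *uros* of 0.972 (0.789 to 1.2). *cpox* had a ratio of 0.997 (0.865 to 1.15) and *ppox* of 0.829 (0.628 to 1.09). The median log2 ratio was 0.041, beside 0.011 for all genes, with 6 genes above 0 and 4 below.

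Genes that supply or serve the pathway were set beside it. For all lists below, the shares of all compared genes past 1.5-fold in HNE Z-REX against non-treated were 5.26% higher and 4.28% lower. In HDE Z-REX against non-treated they were 6.23% and 4.25%. The lists are short, and no test of a list was run. Of 16 compared genes for mitochondrial carriers, porphyrin transport and iron-sulfur assembly, 3 were at least 1.5-fold higher and 0 lower in HNE Z-REX against non-treated, and 2 were higher and 1 lower in HDE Z-REX. Of those higher in HNE Z-REX, *abcb6b* had an interval that included 1 (1.51, 0.856 to 2.72). *slc25a38a*, which encodes a mitochondrial glycine carrier needed for heme synthesis in zebrafish, had 84 counts in HNE Z-REX, 48 in HDE Z-REX and 32 in non-treated. It rose 2.65-fold (1.74 to 4.11) in HNE Z-REX and 1.70-fold (1.06 to 2.74) in HDE Z-REX, and it was 1.56-fold (1.08 to 2.27) higher in HNE Z-REX than in HDE Z-REX. The last of these ratios was 1.49 with total counts, inside 1.5-fold. Its more abundant paralog *slc25a38b* had 238 counts in HNE Z-REX, 142 in HDE Z-REX and 211 in non-treated, with ratios to non-treated of 1.14 (0.942 to 1.38) and 0.761 (0.611 to 0.946), so that the paralogs lay on opposite sides of non-treated in HDE Z-REX.

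*abcb6a*, which encodes an ATP-binding cassette transporter linked to porphyrins in mammals, had 155 counts in HNE Z-REX, 129 in HDE Z-REX and 59 in non-treated. It rose 2.65-fold (1.95 to 3.64) in HNE Z-REX and 2.47-fold (1.8 to 3.42) in HDE Z-REX, with no difference outside counting error between the aldehydes (1.07, 0.843 to 1.36). The study had singled this gene out from the same libraries, as significant with HNE but not with HDE, so its rise is not independent evidence. *tmem14cb*, a relative of a protoporphyrinogen importer of mammals, had 47 counts in HNE Z-REX, 37 in HDE Z-REX and 64 in non-treated, and fell in HDE Z-REX to a ratio of 0.654 (0.424 to 0.995), a call that was lost with total counts (0.690, 0.447 to 1.05). The most abundant genes of this list, *glrx5* for an iron-sulfur glutaredoxin and *tmem14ca*, had ratios to non-treated between 0.966 and 1.08. The list medians were 0.13 in HNE Z-REX and -0.10 in HDE Z-REX on the log2 scale.

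Genes of heme breakdown and heme binding, 8 in number, were mostly above non-treated in HNE Z-REX, with a median log2 ratio of 0.32, against -0.093 in HDE Z-REX. Of these, 2 rose in HNE Z-REX, and 1 was past 1.5-fold and lower in HDE Z-REX, *hpx* for hemopexin, at 14, 6 and 11 counts in HNE Z-REX, HDE Z-REX and non-treated with an interval that included 1. *hebp2*, which encodes a heme-binding protein of the SOUL family, had 1065 counts in HNE Z-REX, 640 in HDE Z-REX and 499 in non-treated, a ratio of 2.15 (1.93 to 2.40) in HNE Z-REX and 1.45 (1.29 to 1.63) in HDE Z-REX, the last past 1.5-fold with total counts (1.53). *blvra*, for a biliverdin reductase, had 166 counts in HNE Z-REX, 123 in HDE Z-REX and 111 in non-treated, a ratio of 1.51 (1.18 to 1.94) in HNE Z-REX, close to the threshold, and 1.3 (0.962 to 1.63) in HDE Z-REX. The heme oxygenase gene *hmox1a*, the first step of breakdown, had 454 counts in HNE Z-REX, 274 in HDE Z-REX and 406 in non-treated, with ratios to non-treated of 1.13 (0.985 to 1.29) and 0.763 (0.652 to 0.892). Its interval included 1 in HNE Z-REX and lay below 1 in HDE Z-REX, and the ratio between the aldehydes was 1.48 (1.27 to 1.72). The abundant *blvrb* and *pgrmc1*, for another biliverdin reductase and a heme-binding membrane protein, had ratios to non-treated between 0.875 and 1.03.

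Among 9 regulators, 0 were past 1.5-fold in HNE Z-REX against non-treated, whereas 2 were higher and 1 lower in HDE Z-REX. *bach1a* and *bach1b* encode relatives of a heme-sensing repressor of mammals. *bach1a* had 89 counts in HNE Z-REX, 178 in HDE Z-REX and 115 in non-treated, and rose 1.75-fold (1.38 to 2.23) in HDE Z-REX. *bach1b* had 196 counts in HNE Z-REX, 272 in HDE Z-REX and 196 in non-treated, and rose 1.57-fold (1.3 to 1.90) in HDE Z-REX. Both were lower in HNE Z-REX than in HDE Z-REX, at ratios of 0.446 (0.342 to 0.579) and 0.643 (0.532 to 0.775). In HNE Z-REX against non-treated the unit mattered for both: with FPKM (pseudocount 0.1) *bach1a* was 1.59-fold higher, at 2.86 FPKM in HNE Z-REX against 1.77 in non-treated, and *bach1b* had a ratio of 0.682, so no direction is given for either there.

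*lonp1* encodes a mitochondrial protease that degrades ALAS1 in mammalian cells. It had 1033 counts in HNE Z-REX, 586 in HDE Z-REX and 1003 in non-treated, fell in HDE Z-REX to a ratio of 0.661 (0.596 to 0.732), which was 0.697 with total counts and so inside 1.5-fold, and was 1.57-fold (1.42 to 1.74) higher in HNE Z-REX than in HDE Z-REX. *clpp*, for another mitochondrial protease, had ratios to non-treated of 0.945 in HNE Z-REX and 0.820 in HDE Z-REX. In the iron list, of 11 genes, 1 was at least 1.5-fold higher in HNE Z-REX (*aco1*) and 1 in HDE Z-REX (*TFR2*, with only 13, 12 and 9 counts in HNE Z-REX, HDE Z-REX and non-treated). *aco1*, for the iron-responsive cytosolic aconitase, had 297 counts in HNE Z-REX, 234 in HDE Z-REX and 185 in non-treated and rose in HNE Z-REX, at a ratio of 1.62 (1.34 to 1.96), beside 1.43 (1.17 to 1.74) in HDE Z-REX, or 1.51 there with total counts. The ferritin gene *fth1a* and the transferrin gene *tfa*, the most abundant of that list, had ratios to non-treated between 0.882 and 0.988.

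The list for the substrates of the first step held 10 entries. Of these, *dld* is the zebrafish symbol of the Notch ligand deltaD and does not belong there. With *dld* included, 0 were past 1.5-fold in any comparison. The medians, also with *dld*, were -0.054 in HNE Z-REX and -0.086 in HDE Z-REX against non-treated. The most abundant of them, *suclg1* and *dlst*, of the succinyl-CoA ligase and the oxoglutarate dehydrogenase complex, had ratios between 0.863 and 0.956. *suclg2*, also of the succinyl-CoA ligase, came closest to 1.5-fold, at 0.671 (0.614 to 0.733) in HNE Z-REX and 0.718 (0.656 to 0.785) in HDE Z-REX. With *dld* included, the interval lay below 1 for 4 genes and above 1 for 3 in HNE Z-REX, *dld* among the latter. Beside this, it lay below 1 for 12.6% and above 1 for 12.4% of all genes. In HDE Z-REX it lay below 1 for 6 and above 1 for 0, beside 16.8% and 13.8%. At high counts a ratio near 1 can have such an interval, as for *suclg1* in HNE Z-REX (0.922, 0.884 to 0.962). Of 4 genes that attach or modify heme for cytochromes, 0 passed 1.5-fold, and *cox10* and *hccsb* had ratios to non-treated between 0.880 and 1.13. *cox15* had ratios of 1.41 (1.21 to 1.66) in HNE Z-REX and 1.14 (0.963 to 1.36) in HDE Z-REX.

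**Figure D4:**
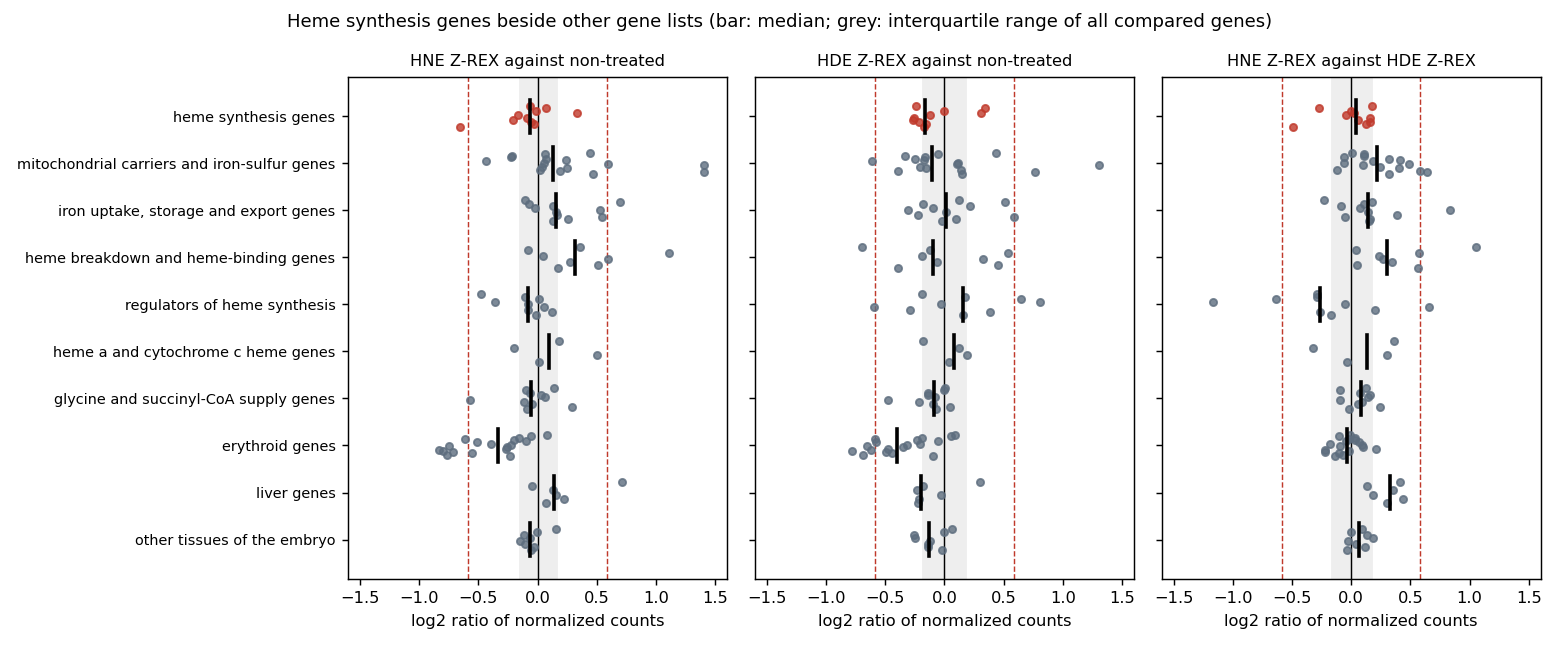
Log2 ratios of TMM-normalized counts for the heme synthesis genes (red) and for other gene lists (grey-blue), 1 point per gene; black bars are medians, dashed lines 1.5-fold and the grey band the interquartile range of all compared genes. The erythroid genes have medians of -0.33 and -0.40 against non-treated in HNE Z-REX and HDE Z-REX, lower than those of the heme synthesis genes (-0.060 and -0.16).

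Red blood cells are the main site of heme synthesis in an embryo, so erythroid genes were given beside it. Of 18 compared entries, 6 were at least 1.5-fold lower and 0 higher in HNE Z-REX against non-treated, 5 were lower and 0 higher in HDE Z-REX, and none of them was at 0 in any library. With total counts, 2 entries stayed 1.5-fold lower in HDE Z-REX (1 each of *hbae1* and *hbbe1.1*), and 6 did in HNE Z-REX. The list took 0.208% of the counts in HNE Z-REX, 0.230% in HDE Z-REX and 0.298% in non-treated. *cahz*, a carbonic anhydrase of red blood cells, had 699 counts in HNE Z-REX, 633 in HDE Z-REX and 1077 in non-treated and fell in both, with ratios of 0.655 (0.595 to 0.721) and 0.665 (0.602 to 0.734), the last of which was 0.701 with total counts. *klf1*, an erythroid transcription factor, had 42 counts in HNE Z-REX, 40 in HDE Z-REX and 71 in non-treated and fell in both, with ratios of 0.597 (0.398 to 0.886) and 0.637 (0.421 to 0.952), the last of which was 0.672 (0.444 to 1.00) with total counts. In HDE Z-REX the calls of both genes were thus lost under that scaling. The red cell genes other than globins, *cahz* and *klf1* stayed inside 1.5-fold, some well below non-treated and some near it. The ratios in HNE Z-REX and HDE Z-REX were 0.699 (0.595 to 0.821) and 0.670 (0.566 to 0.793) for *epb41b*. For *slc4a1a* they were 0.763 (0.715 to 0.814) and 0.865 (0.811 to 0.922). They were 0.858 and 0.804 for *tal1*, and 0.872 and 0.851 for *ank1a*. Nearer to 1 were *rhag* (1.06 and 1.06), *nt5c2l1* (0.965 and 1.04) and *sptb* (0.935 and 0.965). For *gata1a*, of the regulator list, the ratios were 0.927 and 1.13. Of the 18 entries, 17 lay below non-treated and 1 above in HNE Z-REX, and 16 below and 2 above in HDE Z-REX. The interval lay below 1 for 13 entries and above 1 for 0 in each Z-REX library. Beside this, it lay below 1 for 12.6% of all genes in HNE Z-REX and 16.8% in HDE Z-REX.

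The 8 globin entries cover alpha globins (*hbae*) and beta globins (*hbbe*). Counts were fractional for 1 of *hbae1*, both of *hbbe1.1* and *hbbe1.2*, and whole for the others. The entries were also summed. The sum was 29954 counts in HNE Z-REX, 28371 in HDE Z-REX and 45567 in non-treated, ratios of 0.663 (0.654 to 0.673) and 0.704 (0.694 to 0.715). The most abundant entries were *hbae3*, with ratios of 0.682 and 0.735, and *hbbe3*, with ratios of 0.838 and 0.783. The entries past 1.5-fold were 1 of *hbae1*, *hbbe1.2* and 1 of *hbbe1.1* in both Z-REX libraries, and the other of *hbbe1.1* in HNE Z-REX. All of these had fractional counts, and the globin entries with whole counts stayed inside 1.5-fold. Besides *hbae3* and *hbbe3*, those were the other *hbae1* entry (0.850 in HNE Z-REX and 0.935 in HDE Z-REX) and *hbbe2* (0.829 and 0.719). *alas2* did not show a decrease as large as that of the globin sum: there were 28.4 *alas2* counts per 1000 globin counts in HNE Z-REX, 24.6 in HDE Z-REX and 19.3 in non-treated. In whole embryos, fewer red blood cells and less RNA per cell cannot be told apart, and what part the erythroid genes have in the ratios of the heme synthesis genes was not tested.

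Liver genes were also listed. Of 8 liver genes, 6 were compared, since *fabp10a* and *ttr* had between 0 and 2 counts in every library. The list took 0.0700% of the counts in HNE Z-REX, 0.0588% in HDE Z-REX and 0.0624% in non-treated, with 1 gene at least 1.5-fold higher in HNE Z-REX and 0 past that fold in HDE Z-REX. That gene was *rbp4l*, for a retinol-binding protein, which had 566 counts in HNE Z-REX, 380 in HDE Z-REX and 349 in non-treated, a ratio of 1.64 (1.43 to 1.88) in HNE Z-REX. *serpina1*, for a secreted protease inhibitor, had ratios of 1.17 and 0.862 to non-treated, and *ambp* of 0.969 and 0.884. With *fabp10a* and *ttr* at or near 0, the other genes are not shown to report on liver, and its part in the *alas1* ratio was not tested.

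The pattern of *alas1* over the libraries was matched against 11765 genes with whole counts and a mean of at least 100 counts by the distance between their pairs of log2 ratios to non-treated. The nearest were *r3hcc1*, *tgd.2*, *ABTB1*, *gphnb* and *f13a1b*, at distances of 0.026, 0.029, 0.037, 0.051 and 0.062 on the log2 scale. *r3hcc1* had 102 counts in HNE Z-REX, 125 in HDE Z-REX and 162 in non-treated, in near proportion to *alas1*. With 3 libraries such likeness describes the libraries only.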

How the data were processed

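The authors trimmed reads with cutadapt 1.8, mapped them to GRCz10 with TopHat2 2.1 and made FPKM with Cufflinks 2.2; the deposited FPKM are per transcript length and library. The deposited expected counts are unscaled. How reads were counted is not given in the sources used here; 939 genes have fractional values in at least 1 library, and all counts were rounded.

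Counts were scaled by TMM (edgeR 4.0.16, R 4.3.3). Ratio intervals come from exact Clopper-Pearson limits (scipy 1.17.1) of a gene's share in a pair of libraries. The procedure was tested on simulated counts with counting error alone, which is what the interval assumes. That test does not bear on variation between embryos. No p-value was computed. Alternatives were DESeq2 1.42.0 size factors, total counts, other filters and folds, an assumed biological variation, and FPKM. No table column was left unmapped (0).

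The members and gene lists were chosen with earlier results of these data known. Of each other list but the other tissues of the embryo, genes past 1.5-fold with an interval off 1 and the 2 highest by non-treated FPKM were named. The 5 genes nearest to *alas1* were named too. The genes *hmox1a*, *slc25a38b*, *abcb6b*, *hmox2a*, *rhag*, *nt5c2l1*, *sptb*, *gata1a*, *dld*, *TFR2*, *hpx*, *fabp10a* and *ttr* were added after their values were seen. So were *epb41b*, *slc4a1a*, *tal1*, *ank1a*, *suclg2*, *cox15*, *hmox2b* and *hbbe2*. Of the list names, 11 matched no entry. Protein and promoter sequences were not used here. Figures were drawn with matplotlib 3.10.9.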

Additional observations from a re-analysis of the deposited data

Results flagged for a closer look

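*alas1* differed between the HNE Z-REX and HDE Z-REX libraries by more than counting error: the log2 ratio of HNE Z-REX to HDE Z-REX was -0.49, from 883 counts in HNE Z-REX and 1105 in HDE Z-REX. With 1 library per condition this compares 2 libraries, a difference between the aldehydes was not tested, and 0 of the 10 genes kept an interval off 1 with an assumed coefficient of variation of 0.2.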

How the results depend on the processing

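Of the alternatives, 58 left a count or median over the 10 genes unchanged or within its limit, and 11 moved one. At 2-fold instead of 1.5-fold, 0 genes passed in HNE Z-REX against non-treated, and at the lower of the alternative folds 2 passed there, 1 in HDE Z-REX against non-treated and 1 in HNE Z-REX against HDE Z-REX. The genes with an interval off 1 in HDE Z-REX against non-treated numbered 6 with TMM, 3 with total counts, and 3 with total counts without the 20 most abundant genes. With an assumed coefficient of variation of 0.1 per library, 1 gene kept such an interval in HNE Z-REX and 0 in HDE Z-REX against non-treated. With 0.2, 0 genes kept it in HNE Z-REX, 0 in HDE Z-REX and 0 between the aldehydes. Wider intervals and stricter or looser folds are what these settings impose; for total counts, the shift of 0.077 (log2) in HDE ratios moved the calls. All 150 alternatives for single genes stayed within counting error of the value given; with FPKM, *alad* in HNE Z-REX and *uros* in all comparisons changed sign, and with total counts *cpox* in HDE Z-REX, and *hmbsa* and *urod* between the aldehydes, did. For the other lists, scalings and FPKM were tried after seeing the data: with total counts *cahz*, *klf1*, *hbbe1.2*, *tmem14cb* and *lonp1* lost their call in HDE Z-REX against non-treated, and with FPKM *rhag* and *hmox2a* passed 1.5-fold in HNE Z-REX. No paired analysis was possible because each condition has 1 library, and no library could be left out. The planned protein and promoter comparison was not run. Counts under about 100, as for *fech*, limit what ratio could be seen.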
